A study of Mus musculus with 6 samples.

Results

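Lysosomes are acidic compartments in which enzymes break down proteins, sugars and lipids that reach them by endocytosis, phagocytosis or autophagy. Their membrane carries proton pumps, ion channels and heavily glycosylated structural proteins. In bone, macrophages and osteoclasts hold many lysosomes, and osteoclasts direct lysosomal enzymes and acid onto the bone surface. The data below describe 35 genes for lysosome enzymes and membrane proteins, taken by symbol from a count table of 43346 genes. All 35 were found once in the table, and all 35 passed the filter on low counts. They comprise 9 proteases, 11 glycosidases and sulfatases, 7 genes for lipid breakdown and export, and 8 membrane proteins.

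The libraries were made from limb bone of mouse pups that were 1 day old. There were 3 libraries from C57BL/6 pups labelled WT, called wild type here, and 3 from C57BL/6 pups labelled Hdac3 CKO, which the series design calls Hdac3 CKOPRX1. Hdac3 encodes a histone deacetylase, and a Prx1 driver acts in limb mesenchyme, which forms bone and cartilage but not blood cells, macrophages or osteoclasts. The labels give no floxed allele or litter and do not say whether each library is 1 animal, so a p-value here reflects the spread among 6 libraries, part of which may be technical.

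Total counts per library ranged from 43389262 to 50927978. Hdac3, the targeted gene, stood at 47.4 to 50.3 CPM (TMM-normalised read counts relative to library size) in wild type and at 28.3 to 31.8 CPM in Hdac3 CKO. Of 8 osteoblast markers, Col1a1 had the highest level in every library, at 23530 to 55680 CPM, and Bglap the lowest, at 13.2 to 22.0 CPM. Muscle genes were abundant throughout, with 7 muscle markers summing to 47044 CPM in Hdac3 CKO replicate 1 and 25540 to 31056 CPM elsewhere. The summed level of 7 chondrocyte markers was 6734 CPM in wild type replicate 3 and 14242 CPM in Hdac3 CKO replicate 3, against 847 to 1531 CPM in the other libraries. Hdac3 CKO replicate 1 also stood apart by base composition. With tested genes split into 5 equal bins by GC content, its median log2 deviation from the mean of the 6 libraries was -0.55 in the lowest bin and 0.26 in the highest. In the other libraries these medians lay between 0.0074 and 0.22 in the lowest bin and between -0.14 and 0.040 in the highest.

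Many lysosomal promoters carry E-boxes, the letters CACGTG, which the transcription factors TFEB and TFE3 recognise within longer sites known as CLEAR elements. The windows from 250 bases before to 50 bases after each start in RefSeq (build GRCm38.p6) were searched on both strands for CACGTG and for TCACGTG, which contains it, and a gene with several windows counted once if any held the letters. Windows were found for 30 of the 35 genes. CACGTG occurred in 10 of the 30 (33.3%) and in 8.09% of the 27025 genes with a window. TCACGTG occurred in 9 of the 30, or 30.0%, against 4.29% of all genes. A match describes the letters only and not a bound site. The sequences below show the 4 members whose stretch around upstream matches lay outside all GENCODE M21 exons, with each CACGTG and a flanking T or A in capitals.
Lamp1 (chr8:13159080-13159160, plus strand): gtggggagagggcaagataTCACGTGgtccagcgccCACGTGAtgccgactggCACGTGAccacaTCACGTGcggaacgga
Glb1 (chr9:114401010-114401055, plus strand): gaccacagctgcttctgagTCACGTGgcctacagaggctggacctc
Gaa (chr11:119267803-119267848, plus strand): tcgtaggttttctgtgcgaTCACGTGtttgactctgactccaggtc
Clcn7 (chr17:25133356-25133390, plus strand): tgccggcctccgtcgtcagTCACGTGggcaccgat
Lamp1 held 4 copies of CACGTG within this stretch and the other 3 genes held 1 each, and the Clcn7 window held a further copy outside it. The windows of Ctss and Ctsc, the members whose level rose in Hdac3 CKO (below), held none. The 100 bases before their starts are shown for comparison, all in lower case because no searched motif is present.
Ctss (chr3:95526686-95526785, plus strand): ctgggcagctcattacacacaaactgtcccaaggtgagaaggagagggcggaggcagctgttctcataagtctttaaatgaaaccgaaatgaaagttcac
Ctsc (chr7:88277985-88278084, plus strand): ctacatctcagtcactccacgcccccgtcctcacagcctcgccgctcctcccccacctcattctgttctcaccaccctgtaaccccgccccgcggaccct

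Of the 35 genes, 2 rose in Hdac3 CKO bones and 0 fell. They were the cathepsins Ctss and Ctsc. The threshold was a Benjamini-Hochberg adjusted p under 0.05 from the quasi-likelihood test of edgeR over 20210 genes, of which 1.12% passed, 0.668% higher and 0.45% lower. At an unadjusted p under 0.05, 12 of the 35 were higher and 0 lower, against 7.68% and 7% of all tested genes. Values per library did not overlap between the genotypes for 17 of the 35, all of them higher in Hdac3 CKO. Among all tested genes 11.5% were higher without overlap and 10.9% lower. The log2 fold changes ran from -0.29 to 1.05 with a median of 0.29, beside a median of 0.00088 for all tested genes, and 29 of the 35 stood above 0, against 50.1% of all. The count of 12 moved with the setting. It was 4 higher and 1 lower with library totals, where 2.99% of all genes were higher and 15.6% lower, and 3 higher with limma on log2 RPKM (3.07% of all with a pseudocount of 1). It was 5 without wild type replicate 1 (5% of all), 6 without wild type replicate 2 (4.63%), and 18 with 1 lower without wild type replicate 3 (6.22% higher). DESeq2 called 4 of the 35 higher (Ctsb, Ctsc, Ctss and Laptm5) and 0 lower, and it called 2.38% of all genes higher. In bulk tissue, more cells of a type and more RNA per cell cannot be told apart.

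**Figure D1:**
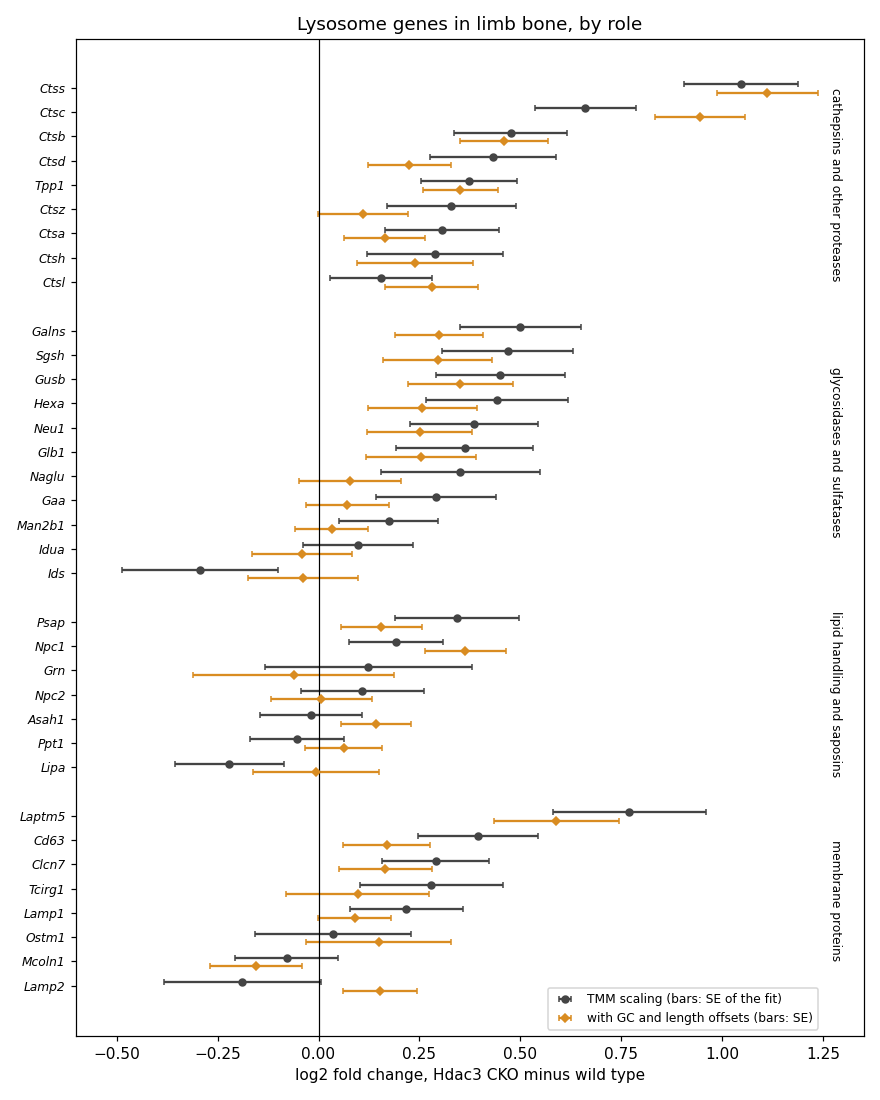
Log2 fold change of each of the 35 lysosome genes (Hdac3 CKO minus wild type), grouped by role and sorted within a role. Circles are the fit on TMM-scaled counts and diamonds the fit with GC and length offsets, with bars of 1 SE. All 9 proteases lie above 0 in both fits, and Ctss (1.05) and Ctsc (0.66) lie farthest right among them.

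The fold changes of all genes varied with base composition, and the median of the list was lower with GC content and gene length fitted together. Members ran from 38.7% to 59.8% GC with a median of 52.2%, and tested genes had a median of 49.6%. The median log2 fold change of all tested genes climbed with GC content, from -0.26 in the lowest bin to 0.19 in the highest. That of the members lay above it in each bin, at -0.19 (5 genes), 0.15 (5 genes), 0.32 (6 genes), 0.31 (9 genes) and 0.37 (10 genes). With GC content and gene length fitted per library as offsets, the median of the 35 was 0.16 and that of all genes -0.013. Ctss and Ctsc again rose and 0 fell, against 0.901% of all genes rising. In that fit 30 of the 35 stood above 0, against 48.2% of all, and 13 were higher without overlap, against 10.2%. At an unadjusted p under 0.05, 9 were higher, against 7.34%, and 0 lower.

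**Figure D2:**
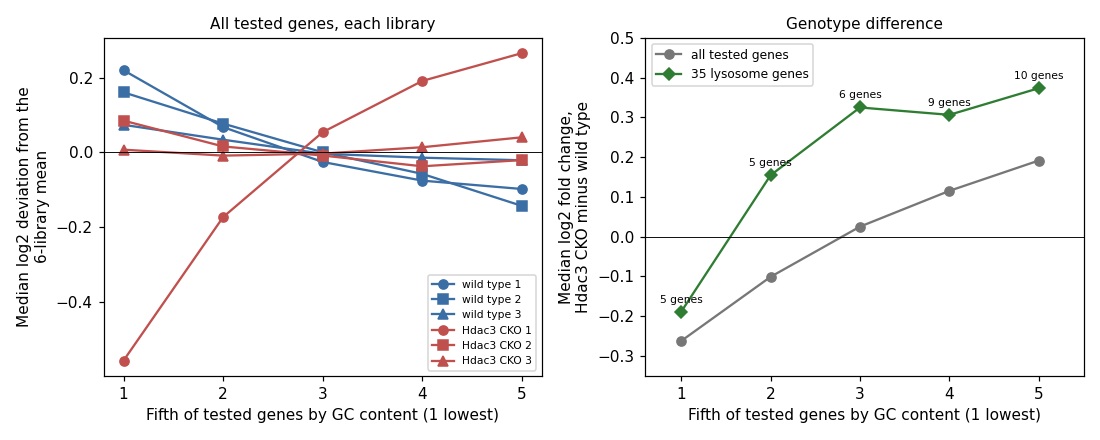
Left, median log2 deviation of each library from the 6-library mean in 5 equal bins of the tested genes by GC content. Right, median log2 fold change (Hdac3 CKO minus wild type) in the same bins for all tested genes and for the 35 lysosome genes, with the number of members at each point. Hdac3 CKO replicate 1 runs from -0.55 to 0.26, and the members lie above all tested genes in each bin.

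Both genes that rose were proteases. Of the 9 proteases, 2 rose, 0 fell and 7 did not pass, with a median log2 fold change of 0.37, or 0.28 with GC and length offsets. Cathepsin S (Ctss, ENSMUSG00000038642, mm10 chromosome 3, 95526786 to 95556403) is a cysteine protease of antigen-presenting cells that trims the invariant chain of MHC class II. Wild type replicates 1, 2 and 3 had 16.2, 14.5 and 18.0 CPM of Ctss, and the Hdac3 CKO replicates had 34.5, 36.0 and 30.2 CPM. Every Hdac3 CKO library lay far above every wild type library. The mean went from 16.2 ± 1.8 CPM to 33.6 ± 3.0 CPM (SD, n = 3 each), a 2.07-fold rise. Its log2 fold change was 1.05 ± 0.14 (SE), with an edgeR adjusted p of 0.015, and it was 1.11 with an adjusted p of 0.0061 with GC and length offsets. Leaving out 1 library gave 0.97 to 1.13, and the call was lost without wild type replicate 1 (adjusted p of 0.070 in edgeR) or wild type replicate 2 (0.077), and without both replicate 3 libraries (0.11).

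Cathepsin C (Ctsc, ENSMUSG00000030560, chromosome 7, 88278085 to 88310888) is a dipeptidyl peptidase that activates the serine proteases of granulocytes, mast cells and lymphocytes. Ctsc had 43.2, 45.9 and 40.6 CPM in wild type, and Hdac3 CKO had 62.8, 75.1 and 67.0 CPM. Again no library of one genotype reached the other, and the spread within each genotype was small. The means were 43.2 ± 2.6 and 68.3 ± 6.3 CPM (SD, n = 3 each), a 1.58-fold rise. The log2 fold change of Ctsc was 0.66 ± 0.13 (SE), with an edgeR adjusted p of 0.043. Ctsc holds 41.1% GC, and with GC and length offsets its value was 0.94 with an adjusted p of 0.0070. The call on Ctsc was less stable than its direction. It was lost without any 1 library other than Hdac3 CKO replicate 1, with adjusted p-values of 0.096 to 0.19 in edgeR, and also with library totals (0.14), limma-voom (0.053), a stricter filter (0.051) and limma on log2 RPKM (0.20 with either pseudocount).

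Ctsb, an abundant cysteine protease of most cells, had the third smallest p of the group. Its level was 334, 328 and 371 CPM in wild type and 530, 480 and 427 CPM in Hdac3 CKO. All Hdac3 CKO libraries were higher, yet the adjusted p was 0.16 in edgeR, with a log2 fold change of 0.48 ± 0.14 (SE). DESeq2 gave an adjusted p of 0.036. Tpp1, a tripeptidyl peptidase lost in a childhood neuronal storage disease, stood at 0.37, and Ctsd, the main aspartic protease, at 0.43. Ctsa, which protects neuraminidase and galactosidase in a complex, stood at 0.31. The libraries of these 3 genes did not overlap, but none passed the test. With GC and length offsets Tpp1 stood at 0.35, Ctsd at 0.22 and Ctsa at 0.16, and the Ctsa libraries then overlapped. Ctsz (0.33), Ctsh (0.29) and Ctsl (0.15) overlapped between the genotypes, with Ctsl at -0.031 when library totals replaced TMM factors. With the offsets Ctsz stood at 0.11, Ctsh at 0.24 and Ctsl at 0.28. In GENCODE M21, Ctsd shares 34.4% of its exon bases with Gm49369 on the same strand, and Ctsl 26.8% with an antisense gene. Ctsb shares 12.8% with Fdft1 and Ctsa 10.5% with Pltp. The counts of these genes may include reads of the other gene or lack shared reads, since the handling of such reads is not given. Ctss and Ctsc share no exon bases.

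**Figure D3:**
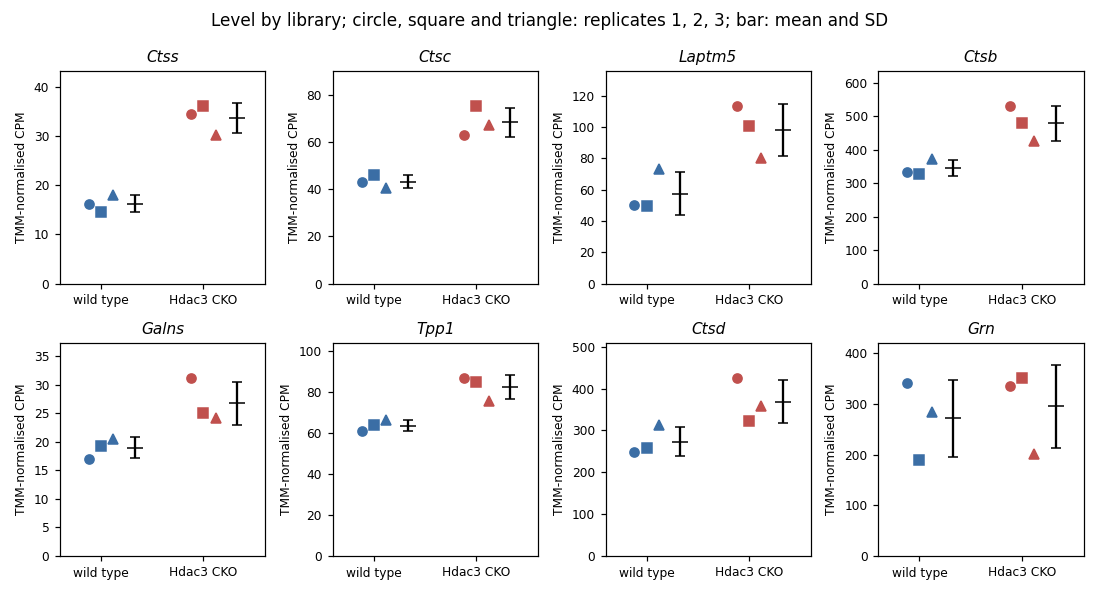
TMM-normalised CPM of 8 members in each library, with circle, square and triangle for replicates 1, 2 and 3, and bars for the mean and SD of 3 libraries. For Ctss the 3 Hdac3 CKO libraries sit between 30.2 and 36.0 CPM, above 18.0 CPM in wild type, while the Grn libraries of both genotypes spread from 189 to 350 CPM.

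None of the 11 glycosidases and sulfatases passed the test (0 rose and 0 fell in edgeR and in DESeq2). At an unadjusted p under 0.05 in edgeR, 5 were higher and 0 lower, against 7.68% and 7% of all tested genes. With GC and length offsets 2 were higher and 0 lower, against 7.34% of all genes higher. The median log2 fold change of the 11 was 0.36, or 0.25 with the offsets. Galns, which removes sulfate from keratan and chondroitin sulfate of cartilage, had 16.9, 19.3 and 20.5 CPM in wild type against 31.1, 24.98 and 24.2 CPM in Hdac3 CKO. The groups did not overlap, and replicate 1 of Hdac3 CKO was the highest. The log2 fold change of Galns was 0.50 ± 0.15 (SE) and its edgeR adjusted p 0.17. With GC and length offsets the log2 fold change was 0.30 and the edgeR adjusted p 0.24.

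Sgsh, the sulfamidase of heparan sulfate, had 8.83, 9.25 and 11.05 CPM in wild type and 14.5, 11.9 and 14.0 CPM in Hdac3 CKO, at 0.47. Gusb, the glucuronidase that acts on several glycosaminoglycans, had 54.3, 66.0 and 77.4 CPM in wild type and 101, 90.3 and 78.9 CPM in Hdac3 CKO, at 0.45. Both were higher in all Hdac3 CKO libraries, Gusb only narrowly, since its replicate 3 libraries were nearly level. Sgsh stood at 0.29 and Gusb at 0.35 with GC and length offsets, and the Gusb libraries then overlapped. Sgsh shares 21.6% of its exon bases with Card14 on the opposite strand.

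The ganglioside enzyme Hexa (0.44), the neuraminidase Neu1 (0.39) and the galactosidase Glb1 (0.36) came next, and for each wild type replicate 3 reached into the Hdac3 CKO range. Naglu (0.35), another heparan sulfate enzyme, overlapped too. With the offsets Hexa stood at 0.26, Neu1 and Glb1 at 0.25 and Naglu at 0.078. Hexa shares 12.8% of its exon bases with Tmem202 on the opposite strand. Gaa, the acid glucosidase that degrades glycogen, stood at 0.29, and Man2b1, the acid mannosidase, at 0.17. Both stood nearer 0 with GC and length offsets, at 0.071 and 0.032, and Man2b1 stood at -0.014 with library totals. Idua, which removes iduronic acid, stood at 0.097 and at -0.040 with the offsets.

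Ids, the X-linked iduronate sulfatase, was the 1 member of this group below 0, at -0.29, and -0.038 with GC and length offsets. Ids had 43.01, 39.6 and 27.5 CPM in wild type and 24.1, 34.2 and 31.5 CPM in Hdac3 CKO. The lowest library was the one with low counts of AT-rich genes, Hdac3 CKO replicate 1. Libraries also differed in sex-linked genes. Y-linked Ddx3y stood at 48.1 CPM in Hdac3 CKO replicate 3 and at no more than 2.18 CPM elsewhere, and Xist at 19.3 CPM there against 700 to 2094 CPM elsewhere. The part of sex in the values of Ids and the X-linked Lamp2 was not tested.

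The lipid group had the lowest median of the 4 roles. None of its 7 genes passed (0 rose, 0 fell, also in DESeq2), and 0 had an unadjusted p under 0.05 in edgeR. With GC and length offsets 1 was higher at that threshold and 0 lower, against 7.34% of all genes higher. The median was 0.11, or 0.062 with the offsets. Psap, the precursor of the saposins that present lipids to their hydrolases, was among the most abundant members, at 480, 503 and 552 CPM in wild type and 766, 593 and 588 CPM in Hdac3 CKO. Its libraries did not overlap and its log2 fold change was 0.34 ± 0.15 (SE), or 0.16 with the offsets. Npc1, the membrane transporter that passes cholesterol out of the lysosome, had 44.4, 42.7 and 40.0 CPM in wild type and 47.7, 50.6 and 47.0 CPM in Hdac3 CKO. The step for Npc1 was small but without overlap, at 0.19, and at 0.36 with the offsets (adjusted p of 0.12 in edgeR).

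Lipa, the acid lipase of cholesteryl esters, was lower on average, with 28.3, 31.4 and 25.3 CPM in wild type and 26.3, 23.5 and 23.1 CPM in Hdac3 CKO. Its log2 fold change of -0.22 was -0.0059 with the offsets, and the groups overlapped. Npc2, the soluble partner of Npc1, stood at 0.11, Asah1, the acid ceramidase, at -0.019 and Ppt1, a palmitoyl-protein thioesterase, at -0.053. With the offsets Asah1 stood at 0.14, Ppt1 at 0.062 and Npc2 at 0.0069, and with library totals Npc2 stood at -0.079.

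Grn, which encodes progranulin, a secreted protein cut into granulins in the lysosome, varied more within genotypes than between them. It had 342, 189 and 284 CPM in wild type and 335, 350 and 201 CPM in Hdac3 CKO. A low library appeared in each genotype, wild type replicate 2 and Hdac3 CKO replicate 3. Its log2 fold change was 0.12 ± 0.26 (SE), and it was -0.061 with GC and length offsets, -0.058 with library totals and -0.079 without wild type replicate 2.

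Among the 8 membrane proteins 0 rose and 0 fell in edgeR, and DESeq2 called 1, Laptm5, higher. At an unadjusted p under 0.05 in edgeR, 2 were higher and 0 lower, against 7.68% and 7% of all tested genes. With GC and length offsets 1 was higher and 0 lower, against 7.34% of all genes higher. The median log2 fold change was 0.25, or 0.15 with GC and length offsets. Laptm5 (ENSMUSG00000028581, chromosome 4, 130913125 to 130936141) is a lysosomal transmembrane protein of blood and immune cells. It had 50.1, 49.5 and 73.2 CPM in wild type and 113, 101 and 80.4 CPM in Hdac3 CKO. The genotypes did not overlap, though the replicate 3 libraries came close to each other. Its log2 fold change of 0.77 ± 0.19 (SE) was the second largest of the 35, with an adjusted p of 0.10 in edgeR, 0.030 in edgeR without the filter on low counts, and 0.0095 in DESeq2. Laptm5 stood at 0.59 with GC and length offsets, behind Ctss and Ctsc, and without wild type replicate 3 at 0.98.

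Cd63, a tetraspanin of late endosomes and lysosomes, had 187, 179 and 216 CPM in wild type and 289, 258 and 219 CPM in Hdac3 CKO, at 0.40, or 0.17 with the offsets. Its highest wild type library lay just under its lowest Hdac3 CKO library, and with the offsets the genotypes overlapped. Lamp1, the main structural glycoprotein of the membrane, stood at 0.22, or 0.090 with the offsets. Its relative Lamp2, which also serves chaperone-mediated autophagy, stood at -0.19 and at 0.15 with the offsets. Lamp2 has the lowest GC content of the 35, and its lowest library was Hdac3 CKO replicate 1, at 110 CPM against 162 to 194 CPM in the others. Lamp1 shares 9.31% of its exon bases with Grtp1 on the opposite strand. Mcoln1, a lysosomal calcium channel, stood at -0.079, or -0.15 with the offsets.

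The remaining 3 membrane members serve acid secretion by osteoclasts, and their loss causes osteopetrosis. Clcn7, the chloride-proton exchanger, had 38.5, 40.5 and 49.4 CPM in wild type and 53.4, 51.2 and 52.4 CPM in Hdac3 CKO, without overlap, at 0.29 (adjusted p of 0.35 in edgeR). Tcirg1, the a3 subunit of the proton pump, stood at 0.28 and Ostm1, the partner of Clcn7, at 0.036. Both overlapped between the genotypes, and Ostm1 stood at -0.14 with library totals. With the offsets Clcn7 stood at 0.17, with overlap, Tcirg1 at 0.097 and Ostm1 at 0.15.

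Per kilobase of the gene length in the deposited table the members spanned a wide range of levels in wild type. Cd63 (188 ± 19 CPM per kilobase, SD, n = 3) and Psap (186 ± 13) came first and did not differ beyond their spread. Ctsd (109 ± 14), Lamp1 (98.7 ± 4.0) and Ctsz (89.5 ± 15.6) followed, each within the spread of its neighbour. The order depended on the length used. Over all GENCODE M21 exon bases, 3682 for Cd63 against 1031 in the deposited table, Cd63 stood at 52.7 ± 5.3 CPM per kilobase and came in place 8, and Psap came first at an unchanged level. By the deposited lengths Sgsh (2.20 ± 0.27), Ostm1 (2.53 ± 0.46) and Npc1 (3.95 ± 0.21) came last. Ctss was a minor cathepsin by this measure, at 11.96 CPM per kilobase in wild type and 24.7 in Hdac3 CKO, against 72.7 and 101 for Ctsb.

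Libraries differed within each genotype in a shared way. Of the 35 genes, 25 had their highest wild type value in replicate 3, and 23 had their highest Hdac3 CKO value in replicate 1. In Hdac3 CKO replicate 3, 23 had the lowest value of that genotype. The median of log2 values relative to the wild type mean was -0.078, -0.072 and 0.15 in wild type replicates 1, 2 and 3. It was 0.48, 0.26 and 0.16 in the Hdac3 CKO replicates, so wild type replicate 3 and Hdac3 CKO replicate 3 were nearly level. Without both of these libraries, the ones rich in cartilage genes, the median of the 35 was 0.46. In that fit 0 of the 35 rose in edgeR, where 0 of all genes rose. At an unadjusted p under 0.05, 16 of the 35 were higher, against 5.23% of all genes. The summed level of the 35 genes was 3531, 3417 and 3947 CPM in wild type and 4900, 4451 and 4024 CPM in Hdac3 CKO.

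Markers of cells rich in lysosomes differed between the same libraries. Of 12 macrophage markers 7 rose and 0 fell, against 0.668% and 0.45% of all tested genes, and the median log2 fold change of the 12 was 1.03. The markers that rose included the complement gene C1qb (1.24) and Emr1 (0.98), which encodes F4/80. Mertk alone stood below 0, at -0.18, or -0.16 with GC and length offsets. With the offsets 8 of the 12 rose and 0 fell, against 0.901% of all genes rising, with a median of 0.97. C1qb and Emr1 then both stood at 1.01. The summed level of the 12 was 333 to 355 CPM in wild type and 567 to 646 CPM in Hdac3 CKO, without overlap. Of 11 osteoclast markers 0 rose and 0 fell in edgeR, and 5 were called higher by DESeq2, against 2.38% of all genes. At an unadjusted p under 0.05 in edgeR, 7 were higher and 0 lower, against 7.68% and 7% of all tested genes. With GC and length offsets 1 rose, Dcstamp (adjusted p of 0.048 in edgeR), and 0 fell, against 0.901% of all genes rising. The summed level of the 11 was 1525 to 2656 CPM in wild type and 2643 to 3421 CPM in Hdac3 CKO. Ctsk, the collagen-degrading cathepsin of osteoclasts, stood at 0.50 with overlap between the genotypes. Of 8 neutrophil markers 5 fell, against 0.45% of all tested genes. With GC and length offsets 4 fell, where 164 of 20210 tested genes fell. The sum of the 8 was 88.8 to 271 CPM in wild type and 18.2 to 28.1 CPM in Hdac3 CKO. No defining marker of these 3 lists was at 0 in the data. The part of each cell type in the values of the lysosome genes was not tested.

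**Figure D4:**
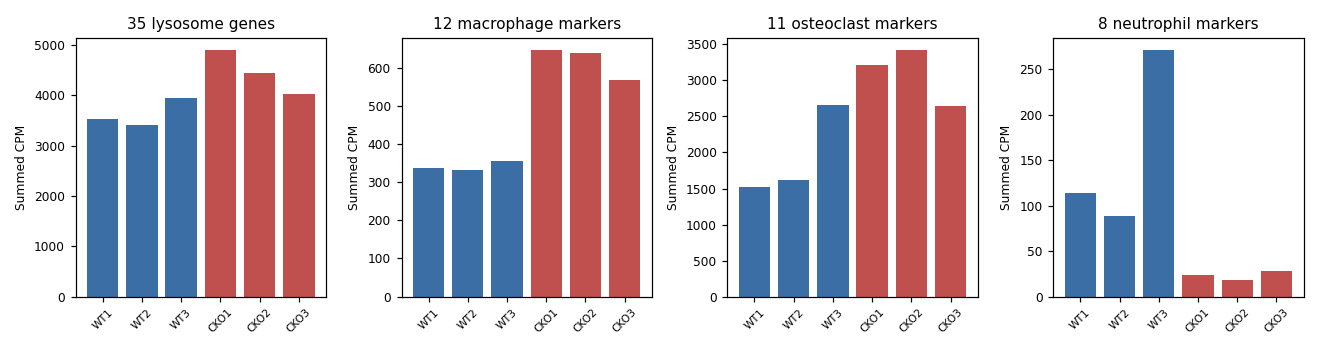
Summed TMM-normalised CPM per library for the 35 lysosome genes and for markers of macrophages, osteoclasts and neutrophils (WT, wild type; CKO, Hdac3 CKO; numbers are replicates). The lysosome sum is 3417 to 3947 CPM in wild type and 4024 to 4900 CPM in Hdac3 CKO, and macrophage markers rise from 333 to 355 CPM to 567 to 646 CPM.

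Other genes of the lysosome were taken as 5 lists with 80 genes, all of them tested. Of these 1 rose and 0 fell in edgeR, against 0.668% and 0.45% of all tested genes. At an unadjusted p under 0.05, 10 were higher and 1 lower, against 7.68% and 7% of all. Libraries did not overlap for 17 that were higher and 5 that were lower, against 11.5% and 10.9% of all. The median log2 fold change was 0.12, the same with GC and length offsets. In the fit with offsets 15 were higher and 3 lower at an unadjusted p under 0.05, against 7.34% and 7.52% of all. DESeq2 called 3 of the 80 higher and 0 lower, beside 2.38% of all genes called higher. The gene that rose was Lgmn (chromosome 12, 102394084 to 102439813), which encodes legumain, an asparaginyl endopeptidase that processes cathepsins. Lgmn had 92.9, 91.5 and 97.3 CPM in wild type and 182, 153 and 134 CPM in Hdac3 CKO. Each Hdac3 CKO library was well above the narrow wild type range. Its log2 fold change was 0.74 ± 0.14 (SE) and its edgeR adjusted p 0.046. With GC and length offsets the log2 fold change was 0.61 and the edgeR adjusted p 0.021. Of the libraries left out in turn, only the omission of Hdac3 CKO replicate 1 kept this call. The other 24 hydrolases of its list did not pass.

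Of 16 subunits of the proton pump that acidifies the lysosome 0 rose and 0 fell in edgeR or DESeq2. All 16 stood above 0, against 50.1% of all tested genes, with a median of 0.18. At an unadjusted p under 0.05 in edgeR, 2 were higher and 0 lower, against 7.68% and 7% of all. With GC and length offsets 14 of the 16 stood above 0, against 48.2% of all, with a median of 0.22. In that fit 4 were higher and 0 lower at an unadjusted p under 0.05, against 7.34% of all higher. Atp6v0a2 had 23.9, 26.5 and 25.02 CPM in wild type and 33.2, 31.4 and 32.9 CPM in Hdac3 CKO, without overlap, at 0.37 (adjusted p of 0.20 in edgeR). Atp6v0c, the ring subunit, stood at 0.44 with overlap. Of 14 other membrane proteins 0 passed in edgeR, and 2 were higher at an unadjusted p under 0.05, against 7.68% of all tested genes. These were the calcium and sodium channel Tpcn1 (0.51) and Laptm4a (0.42), and DESeq2 called both higher. With the offsets they stood at 0.34 and 0.37. In edgeR, 3 of the 14 were then higher and 1 lower at an unadjusted p under 0.05, against 7.34% and 7.52% of all.

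Of 9 sorting genes 0 passed in either tool. Igf2r, the mannose 6-phosphate receptor that brings hydrolases to the lysosome, had 568, 540 and 494 CPM in wild type and 774, 661 and 726 CPM in Hdac3 CKO, without overlap, at 0.43 (adjusted p of 0.20 in edgeR). Nagpa, which uncovers that sugar signal, stood at 0.46, or 0.21 with the offsets. Of 16 genes for MiT/TFE factors and nutrient sensing on the lysosome 0 passed in either tool and 0 had an unadjusted p under 0.05 in edgeR. With GC and length offsets 2 were higher and 0 lower at that threshold, against 7.34% of all genes higher. They were Lamtor1 and Tfec, a MiT/TFE factor with at most 2.44 CPM in any library. Tfec stood at 0.37 with overlap, and at 0.60 without overlap with the offsets. Rptor stood at 0.28 and Lamtor1 at 0.32, or 0.17 and 0.27 with the offsets. Tfeb, a transcription factor that acts at CLEAR elements, had 21.9, 23.9 and 24.0 CPM in wild type and 37.6, 22.3 and 28.2 CPM in Hdac3 CKO. It overlapped between the genotypes at 0.34, and at 0.089 with GC and length offsets. The 9 members with TCACGTG in the promoter window had a median log2 fold change of 0.31, or 0.16 with the offsets. For the 21 with a window but without TCACGTG it was 0.28, or 0.15 with the offsets.

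**Figure D5:**
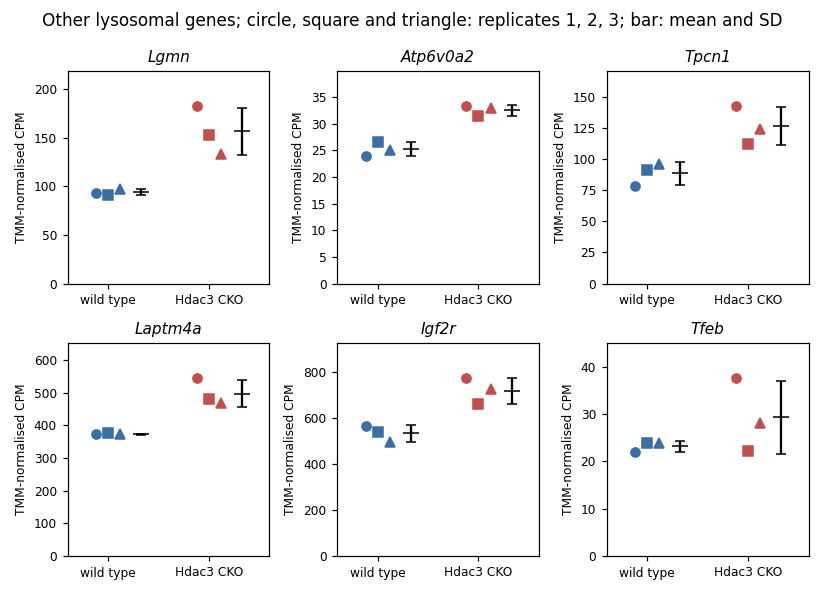
TMM-normalised CPM per library of 6 other lysosomal genes, with circle, square and triangle for replicates 1, 2 and 3, and bars for the mean and SD of 3 libraries. Lgmn libraries of Hdac3 CKO lie between 134 and 182 CPM, above 97.3 CPM in wild type, and Tfeb overlaps between the genotypes.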

How the data were processed

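Whole-number read counts per gene for 6 libraries were deposited by the authors. The build mm10 and the tools featureCounts, Subread, TopHat2 2.1.0 and bcl2fastq 1.8.4 are named in the submitters' processing notes. The sources used here do not give the strand setting, the handling of multiple matches or the annotation. The authors also deposited RPKM values, used only as an alternative. Columns were matched to samples by title. Replicates were numbered in the order of their records.

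Counts were filtered with edgeR 4.0.16 (R 4.3.3), which left 20210 of 43346 genes, scaled by TMM and compared by the quasi-likelihood test with robust moderation, no covariate and 4 residual degrees of freedom. Levels are TMM-normalised CPM. The SE given with an edgeR log2 fold change is an approximation, its absolute value divided by the square root of the quasi-likelihood F statistic. Alternatives were RLE factors, library totals, other filters, no robust moderation, DESeq2 1.42.0, limma 3.58.1 (voom, and log2 RPKM with pseudocounts of 1 and 0.1) and libraries left out. Offsets from per-library splines of log counts on GC content and gene length were added after seeing the data. A GC value, from the longest GENCODE M21 transcript, existed for 98.8% of tested genes and all 35 members. Tested on simulated counts for this comparison (19770 genes), the fit recovered 57.7% of 2-fold changes and 89.8% of 4-fold changes, and 6.49% of its calls were on unchanged genes. Changes under 2-fold were not simulated. Every member except Ctss stood under 2-fold, so these rates do not tell how many changes of that size were missed.

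The 35 genes and the lists were chosen with earlier results of these data known. Values in every library are given for members that passed and for the 3 smallest p in each role. Of the other lysosomal lists, genes that passed or the 2 with the smallest p are named. Grn, Ids, Lamp2 and Tfeb were chosen for fuller values, and Ctso, Tmem106b, Naaa and Tfec named, after their values were seen. Other members are named with 1 value each. Epb42, an erythroid marker, had no match by symbol.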

Additional observations from a re-analysis of the deposited data

How the results depend on the processing

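No paired analysis was possible because the labels give the genotypes no shared replicate numbers. Over 17 alternatives for each of 35 genes, 552 of 595 values kept their direction and their side of the threshold. Of the 35, 33 had no call in the fit reported, so most of this tally counts genes that stayed without a call. Of the 2 genes called, Ctss kept both in 14 of 17 alternatives and Ctsc in 6. All alternatives drew on the same 6 libraries, some of them with libraries left out. The number of members that fell was 0 under all alternatives. The number of members that rose was 2 in the fit reported, 4 with DESeq2, 3 without a filter on low counts (Ctsc, Ctss and Laptm5), and 1 with library totals, with at least 1 CPM in at least 3 libraries, with limma-voom and with limma on log2 RPKM with either pseudocount. It ranged from 0 to 2 with 1 library left out, and was 0 without wild type replicate 1 or 2. Among the 80 other lysosomal genes 1 rose, 3 with DESeq2, and 0 with library totals, without robust moderation, with limma-voom or with limma on log2 RPKM, and 0 to 1 with 1 library left out. The median of the 35 was 0.10 with library totals, where the median of all genes was -0.18, 0.46 without both replicate 3 libraries, and 0.20 to 0.40 with 1 library left out.

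Over all genes 135 rose and 91 fell, and 59.7% of the calls were higher. The number that rose was 54 with library totals (33.8% of calls higher), 257 without a filter, 481 with DESeq2, 37 with log2 RPKM and a pseudocount of 1 (38.5%), 51 with 0.1 (36.4%), and 0 without both replicate 3 libraries. The number that fell was 193 without a filter, 387 with DESeq2, 52 with limma-voom, 59 with log2 RPKM and a pseudocount of 1, 0 without both replicate 3 libraries, and 164 with GC and length offsets. With 1 library left out 11 to 127 rose and 10 to 75 fell.

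Members that changed sign had no call in either setting. With library totals these were Ctsl (-0.031), Idua (-0.088), Man2b1 (-0.014), Npc2 (-0.079), Grn (-0.058) and Ostm1 (-0.14). With log2 RPKM they were Idua (-0.021 and -0.024 for pseudocounts of 1 and 0.1), Npc2 (-0.015 and -0.015), Grn (-0.0035 and -0.0040) and Ostm1 (-0.063 and -0.091). With GC and length offsets they were Idua (-0.040), Asah1 (0.14), Ppt1 (0.062), Grn (-0.061) and Lamp2 (0.15). With 1 library left out Asah1 ranged from -0.11 to 0.051, Grn from -0.079 to 0.34 and Ostm1 from -0.15 to 0.19, while Mcoln1 ranged from -0.12 to -0.020. Without both replicate 3 libraries Mcoln1 was 0.025, Grn 0.37 and Ostm1 0.25. Settings with fewer libraries have fewer degrees of freedom. For the other changes the cause was not tested.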

Other observations

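Some lysosomal genes outside the 35 were lower on average in Hdac3 CKO, and none of them passed the test. Ctso, a cathepsin of little-known function, had 14.2, 13.0 and 15.1 CPM in wild type and 7.53, 10.8 and 9.997 CPM in Hdac3 CKO. The groups did not overlap, at a log2 fold change of -0.58 with an adjusted p of 0.17 in edgeR, and of -0.34 with GC and length offsets. Tmem106b, a lysosomal membrane protein, stood at -0.41 with 32.6 CPM in Hdac3 CKO replicate 1 and 61.4 to 81.0 CPM in the other libraries, and at -0.10 with the offsets. Naaa, an acid amidase of fatty acid ethanolamides, stood at -0.35 and at -0.38 with the offsets.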
